A study of Homo sapiens with 40 samples.

Results

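The genes described here were the antisense noncoding genes of 786-0, a human cell line of clear cell renal cell carcinoma, the commonest kidney cancer. A gene was taken when its symbol ended in -AS and a number and when it reached 5 CPM (the count divided by the library's total count, times 1000000) in at least 2 of 40 RNA-seq libraries. Of the 60664 genes in the deposited count table, 184 were taken, and 1 further antisense gene was not analysed here. The members were thus chosen by their levels in these libraries, and the levels are given as a description. In the 4 untreated libraries alone, 118 of the 184 met it, and the other 66 met it only with treated libraries. A gene of the second kind had to be higher in some treated group, so the split between these kinds is not read as a result.

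The cells were labelled as wild type for SETD2 (WT) or as a SETD2 knockout (KO), and these names are used here as the labels give them. SETD2 is the enzyme that trimethylates lysine 36 of histone H3 along transcribed genes. Each line was sampled untreated at day 0, and at days 5, 16 and 26 with 100 nM DAC (decitabine), with 10 nM BMN (talazoparib), or with both, the combination. Every one of the 20 groups of line, treatment and day held 2 libraries of total RNA. The labels do not say whether these came from separate cultures, whether each line is a single clone, or how the knockout was made, and p-values measure the spread between these libraries. Untreated libraries exist for day 0 alone, so in comparisons with them drug and time in culture cannot be told apart.

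An antisense gene is transcribed from the strand opposite a neighbouring gene, its sense partner, after which it is named. Most are long noncoding RNAs, spliced and polyadenylated but not translated into a known protein. Some recruit chromatin regulators or compete with their partner, and many have no known function. Decitabine is a cytidine analogue that is built into DNA and traps DNA methyltransferases, so that CG methylation is lost as cells divide, and noncoding genes silenced by promoter methylation are among those it is known to switch on. Talazoparib inhibits PARP enzymes and traps them on DNA breaks.

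SETD2 was counted at 153 and 128 CPM in the untreated WT libraries and at 134 and 109 CPM in the untreated KO libraries, and over all libraries the KO range of 107 to 160 CPM overlapped the WT range of 117 to 180 CPM. A count over the whole gene cannot show a small edit, so it checks nothing about the labels. Library totals lay between 17833960 and 22631101 counts, and the 184 genes took 0.1727% to 0.2290% of them. PAX8, the transcription factor of the renal lineage, was at 221 to 486 CPM in all libraries, and KRT8, an epithelial keratin, at 223 to 575 CPM. CA9, a hypoxia-induced gene of this cancer, was at 0 to 3.11 CPM and was not counted in 15 libraries. A list of 10 markers of blood, endothelial and fibroblast cells summed to 1.43 to 3.24 CPM in the 4 untreated libraries, to 1.15 to 5.78 in the 12 BMN libraries, to 7.13 to 25.9 in the 12 DAC libraries and to 7.08 to 26.7 in the 12 combination libraries. PTPRC, CD3E and DCN were at 0 in the untreated libraries, 6 of the 10 markers had a count there, and all 10 had one with DAC. The largest levels were those of the matrix genes LUM (up to 23.1 CPM) and DCN (up to 5.81 CPM). These markers moved with the DAC comparisons below, and their part in them was not tested.

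By the Ensembl 104 coordinates on GRCh38, 77 of the 184 antisense genes overlapped their partner at the 5′ ends, 49 at the 3′ ends, 24 spanned the partner and 22 lay inside it. Another 8 were divergent without overlap, 1 was convergent without overlap, 1 lay on the strand of its namesake, and 2 had no partner symbol. RefSeq gave 175 of them as lncRNA. Because antisense genes and partners overlap, the separation of the strands was checked first. Over 34 antisense genes with at least 50% of their exons under the exons of a partner at 10 or more CPM per kb, the median level per kb was 0.0144 of the partner's, and 95% lay at or below 0.109. At such an overlap, an antisense gene at or below that share of its partner cannot be told apart from carry-over between the strands by its level alone. With any overlap of exons, 48 antisense genes had such a partner, and 30 of them were at or below 0.109. VIM-AS1, at 0.0181 of the level per kb of VIM, and PAX8-AS1, at 0.00869 of that of PAX8, were among them. Where less of the exons overlaps, the share is not matched, and the range of the strand check marks a level only. The overlap was 31.9% of exon bases in VIM-AS1, 7.47% in PAX8-AS1, 2.05% in ID2-AS1 and 1.87% in TENM3-AS1. Over 181 antisense genes the median ratio was 0.282, and in 53 the antisense gene was the higher per kb. A same-strand gene overlapped the span of 66 antisense genes, and reads of the 2 genes could be split there.

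The highest antisense gene in untreated cells was FGD5-AS1 (chr3:14920347-14948424, minus strand) at a mean of 104 CPM, and its partner FGD5, a guanine nucleotide exchange factor known from endothelial cells, was at 0.0388 CPM. Per kb of exon, FGD5-AS1 stood at 20.1 CPM and FGD5 at 0.00479. OIP5-AS1, also called cyrano, followed at 79.9 CPM, CCDC183-AS1 at 73 CPM, NUTM2A-AS1 at 39.4 CPM and MAGI2-AS3 at 37.8 CPM. VIM-AS1, at 32.1 CPM, shares its start region with VIM, the gene of the mesenchymal filament vimentin, which was at 3974 CPM. Around the threshold, the second-highest library was at 5.052 CPM for ALDH1A3-AS1, 5.163 for ELF3-AS1 and 5.195 for RBMS3-AS3, which were just inside. TM4SF18-AS1 at 4.838, RAP2C-AS1 at 4.865 and KIF23-AS1 at 4.903 were just outside.

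The first comparison was KO with WT in untreated cells. Here 36 antisense genes were higher and 30 lower in KO (35.9% of 184, adjusted p below 0.05 by edgeR's quasi-likelihood test over 22527 genes), where 27.2% of all genes passed, 13.4% higher and 13.9% lower. Their median log2 difference was 0.02, and that of all genes was -0.01. The members had to reach 5 CPM and the other genes tested did not, so here and below these shares are not matched for level. Of 172 partners, 34 were higher and 38 lower in KO. Of 553 other antisense genes tested, below the CPM rule, 18 were higher and 32 lower. STEAP1B-AS1 (chr7:22563337-22573996, plus strand, inside STEAP1B, a gene of the STEAP metalloreductase family) was at 0.88 and 0.562 CPM in WT and at 12.1 and 10.2 CPM in KO. Both KO libraries lay above both WT libraries, a log2 difference of 4.01 (SE 0.20, adjusted p = 1.5e-17) or 16.1-fold. STEAP1B itself went from 0.155 and 0.102 to 0.408 and 0.638 CPM (log2 2.04, SE 0.64, adjusted p = 0.016). C12orf75-AS1 rose from 0.518 and 0.613 to 3.52 and 3.29 CPM (log2 2.65, SE 0.29, adjusted p = 4.1e-09). GAS6-AS1, antisense to the gene of GAS6, the ligand of the TAM receptor kinases, rose from 3.11 and 3.37 to 12.2 and 12.8 CPM (log2 2.02, SE 0.16, adjusted p = 3.5e-12), and GAS6 rose by a log2 of 0.93. CAVIN2-AS1 (log2 2.11) and TTN-AS1 (log2 1.97) passed too. CAVIN2-AS1 did not pass without KO replicate 1 (adjusted p = 0.34), WT replicate 1 (0.098) or WT replicate 2 (0.078), nor TTN-AS1 without KO replicate 1 (0.083) or WT replicate 2 (0.15).

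Among the lower genes, PSMG3-AS1, named for a proteasome assembly chaperone, fell from 9.79 and 12.8 CPM in WT to 3.42 and 3.13 CPM in KO (log2 -1.71, SE 0.20, adjusted p = 1.3e-08), and PSMG3 changed by a log2 of -0.25. At 0.068 of its partner per kb, PSMG3-AS1 is within the range of the strand check, with 0.932% of its exon bases opposite PSMG3 exons. TENM3-AS1 fell with its partner TENM3, a teneurin of cell adhesion. TENM3-AS1 was at 21 and 21.9 CPM in WT and at 7.66 and 7.87 CPM in KO (log2 -1.39, SE 0.12, adjusted p = 1.2e-11), and TENM3 went from 629 and 571 to 205 and 180 CPM. At 0.082 of its partner per kb, TENM3-AS1 lies within the range of the strand check, with 1.87% of its exon bases opposite TENM3 exons.

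The ratio of antisense gene to partner was tested on its own, with limma's moderated test on log2 ratios over 663 antisense pairs. Between untreated KO and WT it differed in 36 of the 173 pairs described here, 22 higher and 14 lower, where 9.8% of all pairs tested passed, 5.43% higher and 4.37% lower. Without untreated KO replicate 1 the count was 20 and without KO replicate 2 it was 23. In most of the leading pairs it was the partner that moved. EPB41L4A, a gene of the band 4.1 family, was at 44.4 and 37.4 CPM in WT and at 0.766 and 0.957 CPM in KO, while EPB41L4A-AS1 was at 14.7 and 14.2 CPM in WT and at 19.8 and 19.1 CPM in KO. The log2 ratio of this pair was higher in KO by 5.96 (SE 0.32, adjusted p = 6.6e-23). TP73, a relative of p53, fell from 4.76 and 7.41 to 0.357 and 0.585 CPM while TP73-AS1 rose from 20.1 and 20.4 to 27.8 and 28.5 CPM, a ratio change of 4.10 (SE 0.49, adjusted p = 2.6e-09). ALDH1A3, which makes retinoic acid, was at 36.5 and 37.3 CPM in WT and at 2.09 and 2.66 CPM in KO, beside an antisense gene at 3.73 and 4.65 and at 4.65 and 3.35 CPM (ratio change 3.88, SE 0.28). With both genes tested, 13 of the 173 pairs rose together, 15 fell together and 7 moved in opposite directions. Over all 663 antisense pairs tested, these members included, the shares were 3.32%, 3.92% and 1.66%, and most of the further pairs hold antisense genes below the CPM rule. The 7 were BAALC-AS1, CAVIN2-AS1, EPB41L4A-AS1, GNAS-AS1, SLC30A4-AS1 and TP73-AS1, higher with a lower partner, and LPP-AS2, lower with a higher partner.

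DAC at day 5 was then compared with control. In WT 22 antisense genes were higher and 32 lower (29.3%, where 27.8% of all genes passed, 15.6% higher and 12.2% lower). In KO 31 were higher and 42 lower (39.7%, where 35.4% passed, 19.5% higher and 16% lower). Of the 172 partners, 37 were higher and 39 lower in WT, and 34 and 44 in KO. By direction, 12% of the antisense genes were higher and 17.4% lower in WT, and 16.8% and 22.8% in KO, with medians of -0.08 and -0.09 on the log2 scale. The split differed between the kinds of member, of which the second had to be higher in some treated group. The cause of the split was not tested. Among the 118 genes that met the rule in untreated libraries, 6 were higher and 28 lower in WT and 9 and 35 in KO, and among the other 66 there were 16 and 4 in WT and 22 and 7 in KO. Of 553 other antisense genes tested, below the CPM rule, 44 were higher and 16 lower in WT, and 67 and 27 in KO. With only the WT groups of this comparison in the fit, the WT split was 18 higher and 14 lower. In bulk RNA, more RNA per cell cannot be told apart from more cells that carry it.

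A small group at or near 0 in untreated cells rose by far the most with DAC. These genes met the CPM rule only with treated libraries, so their rises are given as values without p-values. PROSER2-AS1 (chr10:11849608-11894700, minus strand) overlaps the 3′ end of PROSER2, and 31 bases of its exons lie opposite PROSER2 exons. PROSER2-AS1 was at 0.155 and 0.204 CPM in untreated WT cells and at 58.3 and 52.1 CPM with DAC at day 5. In KO, PROSER2-AS1 was at 0.357 and 0.0531 CPM and then at 62 and 53.8 CPM. No DAC library overlapped a control library, and the log2 changes were 8.16 in WT (SE 0.27) and 8.06 in KO (SE 0.27). PROSER2 changed by 0.37 and 0.24, and BMN left PROSER2-AS1 between 0.0456 and 0.343 CPM in both lines. By day 26 of DAC PROSER2-AS1 was at 36.2 and 44 CPM in WT and at 27.8 and 26.8 CPM in KO.

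AFAP1-AS1 (chr4:7754077-7778928, plus strand) is antisense to AFAP1, an adaptor of actin filaments, and is known to lose methylation in oesophageal adenocarcinoma. In WT it went from 0.518 and 0.817 CPM to 61.2 and 62.3 CPM at day 5 (log2 6.47, SE 0.14). In KO it went from 0.357 and 0.425 CPM to 34.3 and 37.1 CPM (log2 6.47, SE 0.16). AFAP1 rose as well, from 27.2 and 24.6 to 58.1 and 58.5 CPM in WT and from 41.1 and 41 to 111 and 105 CPM in KO. Of the 12180 exon bases of AFAP1-AS1, 5135 lie opposite AFAP1 exons.

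Other genes began at the limit of detection. KAZN-AS1, antisense to the gene of kazrin, a desmosome-associated protein, had 1 count in the untreated WT libraries and 194 counts at day 5. That ratio of 192 has a 95% counting interval of 34.1 to 7626. In KO it had 0 counts and then 119, at least 19.9-fold higher against a floor of 3 counts in each library. PCED1B-AS1 (chr12:47205898-47216456, minus strand, inside PCED1B) had 1 count and then 170 in WT, a ratio of 168 (29.8 to 6687), and 0 and then 126 in KO, at least 21.1-fold higher. FER1L6-AS2 had 3 counts and then 186 in WT, a ratio of 61.4 (20.7 to 300), and 2 counts and then 183 in KO, a ratio of 92 (25.1 to 766). These intervals and floors cover counting error only.

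PHKA2-AS1 (chrX:18890296-18894974, plus strand) overlaps the 3′ end of PHKA2, a regulatory subunit of liver phosphorylase kinase. PHKA2-AS1 went from 0.829 and 0.204 CPM to 19.6 and 18.6 CPM in WT, and from 0.204 and 0.159 CPM to 14.9 and 11.4 CPM in KO (log2 6.11, SE 0.36). CAVIN2-AS1 (chr2:191846539-192044525, plus strand), divergent from the gene of a caveolar coat protein with overlapping 5′ ends, went from 0.104 and 0.102 to 10.8 and 9.52 CPM in WT and from 0.613 and 0.266 to 9.68 and 9.86 CPM in KO. CAVIN2 rose too, at lower levels, from 0.0518 and 0.306 to 0.745 and 0.732 CPM in WT (log2 1.95, SE 0.66, adjusted p = 0.026). In KO CAVIN2 had 0 counts and then 34, at least 5.69-fold higher.

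**Figure D1:**
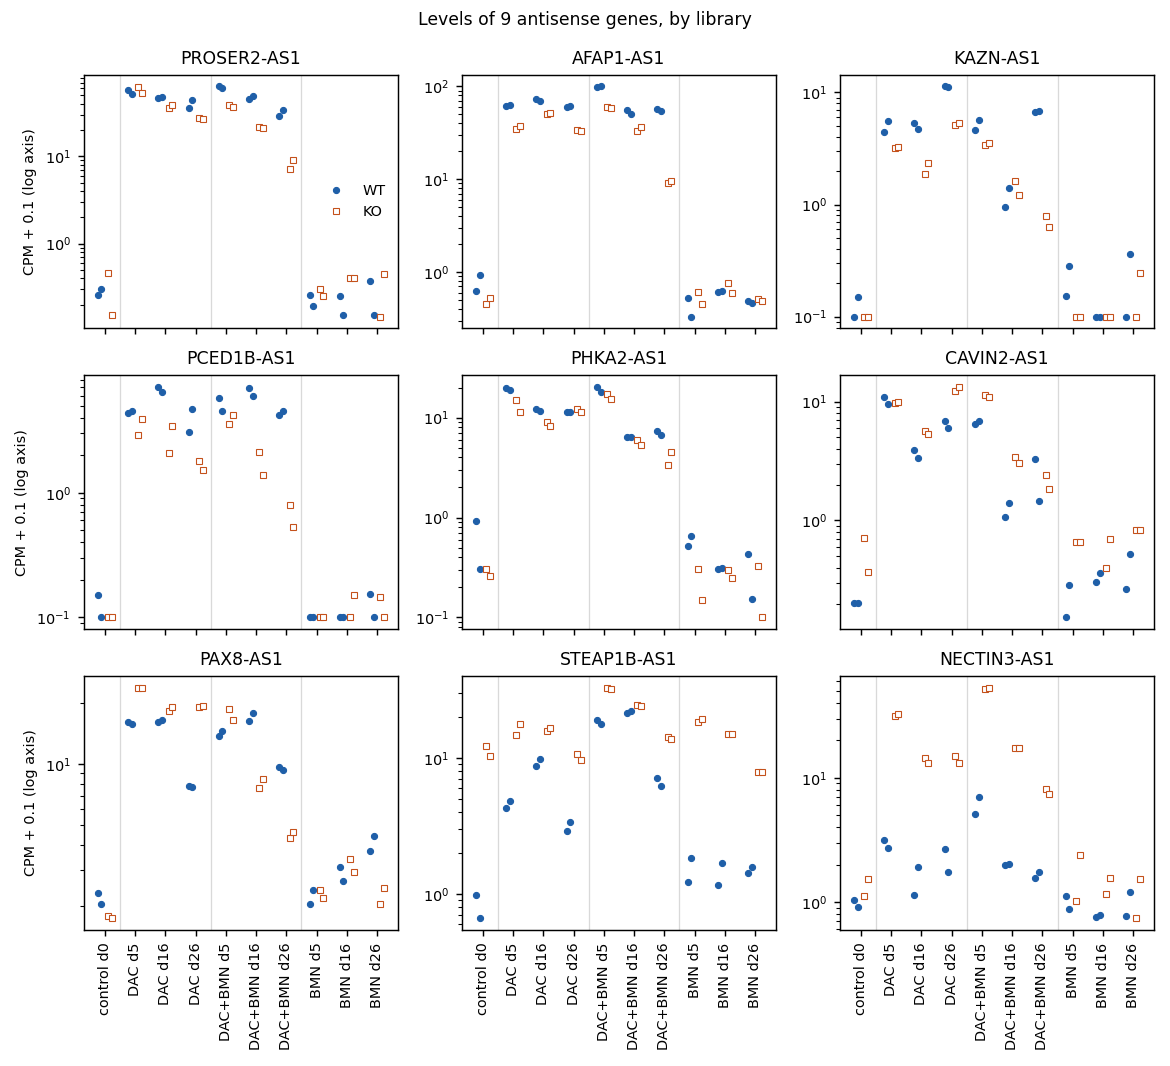
Levels of 9 antisense genes in each of the 40 libraries, as CPM plus 0.1 on a log axis, by treatment and day (horizontal axis); filled circles are WT and open squares KO libraries. PROSER2-AS1 sits at 0.0456 to 0.357 CPM in control and BMN libraries and at 7.14 to 63.9 CPM in DAC and combination libraries, and the KO combination libraries of day 26 are low in several panels.

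The promoters of some of these genes are shown because DAC acts on CG sites. Each is the RefSeq promoter on GRCh38.p14, 300 bases from 250 before to 50 after the start, written 5′ to 3′ on the gene's strand with every CG in capitals. FGD5-AS1, high in all libraries, is given for contrast.
PROSER2-AS1, chr10:11894661-11894960, minus strand: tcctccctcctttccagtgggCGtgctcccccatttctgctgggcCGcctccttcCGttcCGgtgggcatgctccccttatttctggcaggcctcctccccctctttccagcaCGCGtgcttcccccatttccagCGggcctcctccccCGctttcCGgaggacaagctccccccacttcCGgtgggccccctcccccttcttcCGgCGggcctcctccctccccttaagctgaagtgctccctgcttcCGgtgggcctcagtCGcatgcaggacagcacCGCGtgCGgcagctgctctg
PCED1B-AS1, chr12:47216394-47216693, minus strand: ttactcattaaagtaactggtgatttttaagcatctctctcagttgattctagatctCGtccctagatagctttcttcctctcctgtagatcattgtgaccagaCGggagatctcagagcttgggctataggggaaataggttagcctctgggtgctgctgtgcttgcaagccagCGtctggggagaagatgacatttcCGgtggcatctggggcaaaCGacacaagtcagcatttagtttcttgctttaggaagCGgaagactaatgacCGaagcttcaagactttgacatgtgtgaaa
CAVIN2-AS1, chr2:191846238-191846537, plus strand: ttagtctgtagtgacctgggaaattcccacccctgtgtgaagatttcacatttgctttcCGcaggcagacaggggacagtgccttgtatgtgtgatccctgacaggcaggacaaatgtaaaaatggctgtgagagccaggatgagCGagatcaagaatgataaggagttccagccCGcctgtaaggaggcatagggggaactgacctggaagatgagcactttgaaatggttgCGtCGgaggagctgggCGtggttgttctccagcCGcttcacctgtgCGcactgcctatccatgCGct
PHKA2-AS1, chrX:18890046-18890345, plus strand: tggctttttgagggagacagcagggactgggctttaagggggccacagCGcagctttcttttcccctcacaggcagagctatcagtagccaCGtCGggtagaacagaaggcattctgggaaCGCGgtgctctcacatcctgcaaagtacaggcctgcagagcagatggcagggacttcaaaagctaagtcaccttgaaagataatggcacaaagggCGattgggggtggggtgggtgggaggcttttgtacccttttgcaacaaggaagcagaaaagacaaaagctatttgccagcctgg
STEAP1B-AS1, chr7:22563087-22563386, plus strand: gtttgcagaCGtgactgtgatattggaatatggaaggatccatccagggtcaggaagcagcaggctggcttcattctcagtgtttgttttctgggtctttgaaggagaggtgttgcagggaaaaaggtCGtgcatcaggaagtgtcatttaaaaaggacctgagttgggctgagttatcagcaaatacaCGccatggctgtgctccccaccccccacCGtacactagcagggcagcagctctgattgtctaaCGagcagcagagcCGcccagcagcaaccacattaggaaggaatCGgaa
FGD5-AS1, chr3:14948392-14948691, minus strand: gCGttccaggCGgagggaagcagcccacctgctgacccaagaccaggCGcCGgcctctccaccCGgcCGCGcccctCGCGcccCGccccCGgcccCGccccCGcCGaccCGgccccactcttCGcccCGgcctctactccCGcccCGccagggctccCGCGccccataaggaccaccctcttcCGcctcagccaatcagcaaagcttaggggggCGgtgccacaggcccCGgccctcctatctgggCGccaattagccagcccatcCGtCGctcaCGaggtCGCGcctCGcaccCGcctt
The motif searched was CG, which reads the same on both strands. It occurs 17 times in the promoter of PROSER2-AS1, 7 times in that of PCED1B-AS1, 9 times in that of CAVIN2-AS1, 6 times in that of PHKA2-AS1, 7 times in that of STEAP1B-AS1 and 32 times in that of FGD5-AS1. A RefSeq promoter was found for 142 antisense genes, and in 123 its start lay within 1000 bases of the Ensembl start. Of these 123, 95 (77.2%) held at least 15 CG, against 48.9% of 35116 RefSeq promoters of the same length. The RefSeq promoters were not chosen by the level of their genes, so these shares are not matched. Among members at the CPM rule in untreated libraries the share was 83.3% of 84, and among the others 64.1% of 39. Only 4 promoters belonged to genes more than 4-fold higher with DAC at day 5 in both lines, and 1 of the 4 held at least 15 CG, against 94 of the other 119 (79%). AFAP1-AS1, KAZN-AS1 and PAX8-AS1 also rose more than 4-fold in both lines. No RefSeq promoter was found for these genes, so the 4 leave out some of the genes raised most. The methylation of these promoters was not measured here.

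The falls described at day 5 were smaller than these rises. ID2-AS1, beside the gene of a helix-loop-helix inhibitor of differentiation, fell from 11.2 and 11.3 to 6.44 and 5.86 CPM in WT and from 8.83 and 6.91 to 4.27 and 4.32 CPM in KO. BCAN-AS2, antisense to the gene of the proteoglycan brevican, fell from 10.2 and 15.2 to 9.37 and 8.15 CPM in WT and from 13.4 and 12.3 to 4.06 and 6.33 CPM in KO (log2 -1.33, SE 0.22, adjusted p = 7.6e-06). TBX2-AS1, which spans the gene of the transcriptional repressor TBX2, fell from 4.97 and 6.18 to 2.77 and 2.93 CPM in WT (log2 -1.02, SE 0.22, adjusted p = 0.00052). In all these genes the DAC libraries of a line lay below its control libraries. ID2-AS1, at 0.0312 of the level per kb of ID2, is within the range of the strand check. The overlap with ID2 exons is 2.05% of its exon bases.

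Each antisense gene was compared with its partner at day 5. The ratio differed in 55 of 173 pairs in WT (28 higher, 27 lower), where 17.5% of all pairs tested passed (8.9% higher, 8.6% lower), and in 54 in KO (27 higher, 27 lower), where 19.6% passed (9.65% higher, 9.95% lower). In WT both genes rose in 9 pairs and both fell in 9, 10 pairs moved in opposite directions, the antisense gene alone passed in 25 and the partner alone in 48. In KO both rose in 9, both fell in 13, 14 moved in opposite directions, the antisense gene alone passed in 34 and the partner alone in 43. Over all 663 pairs the same classes held 3.02%, 2.11%, 3.77%, 6.03% and 36.3% in WT and 5.58%, 3.17%, 4.68%, 9.35% and 37.4% in KO.

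PAX8-AS1 (chr2:113211421-113276581, plus strand) moved opposite to its partner in both lines. PAX8-AS1 rose from 2.23 and 1.94 to 16.1 and 15.6 CPM in WT while PAX8 fell from 361 and 396 to 239 and 221 CPM. In KO PAX8-AS1 rose from 1.69 and 1.65 to 23.7 and 23.6 CPM while PAX8 fell from 422 and 428 to 272 and 261 CPM. That was a ratio change of 4.48 (SE 0.22), given without a p-value because PAX8-AS1 met the CPM rule only with treated libraries. The antisense gene is within the range of the strand check, but it rose where its partner fell. At day 26 PAX8 was back at 425 and 450 CPM in KO with PAX8-AS1 still at 18.9 and 19.2 CPM. KAZN-AS1 and PHKA2-AS1 also rose with a lower partner in both lines: PHKA2 went from 58.5 and 65.7 to 47.6 and 44.1 CPM in WT and from 84.6 and 82.4 to 64 and 54.4 CPM in KO. LOXL2-AS1, at 0.01 of the level per kb of LOXL2 and so within the range of the strand check, was a further such gene in both lines, while TBX2-AS1 and ZNF710-AS1 fell with a higher partner in both. TBX2 went from 8.54 and 13.1 to 18.6 and 19.8 CPM in WT and from 10.2 and 9.94 to 19.4 and 16.8 CPM in KO.

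**Figure D2:**
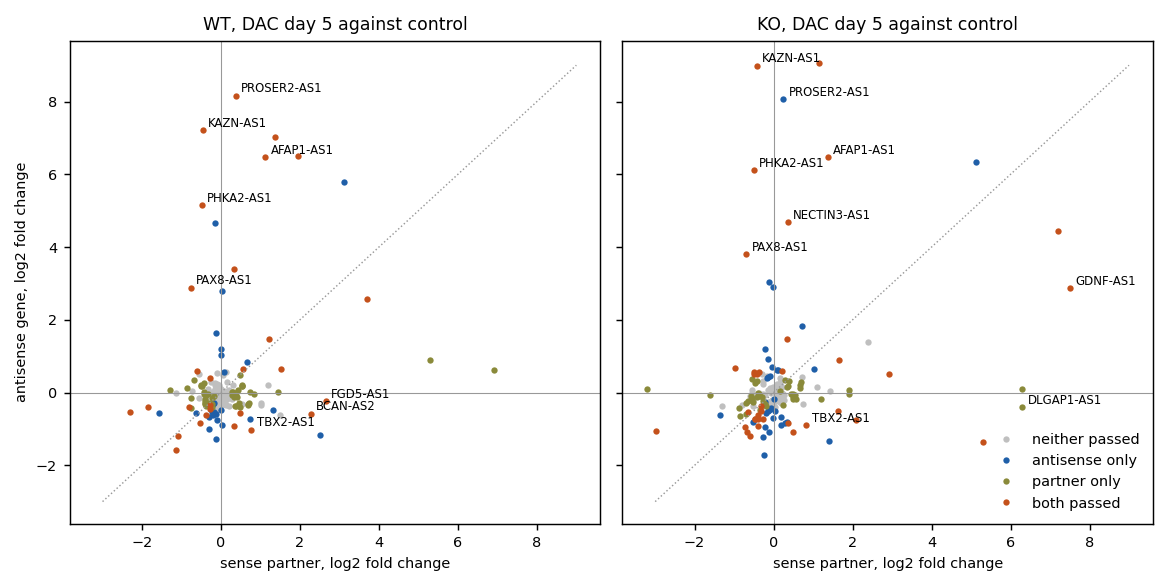
Log2 change with DAC at day 5 against control of each antisense gene (vertical) and its sense partner (horizontal), in WT (left) and KO (right); 173 pairs with both genes tested, coloured by which gene passed, and the dotted line marks equal change. In both panels the largest antisense changes, such as PROSER2-AS1 at 8.16 in WT and 8.06 in KO, stand above partners that changed little.

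In other pairs the partner rose and the antisense gene fell or did not pass the test. HLA-F, a non-classical class I gene, was at 9.01 and 11 CPM in untreated WT cells, at 29.8 and 26.8 CPM at day 5 and at 91.9 and 89.6 CPM at day 16, while HLA-F-AS1 was between 3.07 and 7.86 CPM in all libraries. In WT HLA-F-AS1 was lower with DAC than in control at day 26 (log2 -0.53, SE 0.18, edgeR adjusted p = 0.026) and lower than with BMN (log2 -0.42, SE 0.10, adjusted p = 0.00089). Against BMN over the 3 days, the log2 ratio of this pair changed by -2.82 in WT (SE 0.13, limma adjusted p = 1e-27) and by -3.04 in KO (SE 0.13, adjusted p = 7.3e-29). DLGAP1, a scaffold of the postsynaptic density, had 2 counts in untreated KO cells and 177 with DAC at day 5, a ratio of 89 (95% counting interval 24.3 to 741). DLGAP1-AS1 and DLGAP1-AS2 lie inside DLGAP1. DLGAP1-AS1 was at 6.18 and 5.69 CPM and then at 4.58 and 4.48 CPM, and DLGAP1-AS2 at 5.67 and 3.77 CPM and then at 4.53 and 5.8 CPM. FGD5 rose in WT from 3 counts to 265 at day 26, a ratio of 78.4 (26.6 to 383), and FGD5-AS1 was at 113 and 113 CPM and then at 118 and 104 CPM. At day 5 FGD5-AS1 was lower than control in both lines, by a log2 of -0.24 in WT (SE 0.07, adjusted p = 0.0075) and -0.18 in KO (SE 0.07, adjusted p = 0.04). GDNF, a neurotrophic factor, had 1 count in untreated KO cells and 226 with DAC at day 5, a ratio of 227 (40.4 to 9018). GDNF-AS1, which spans it, rose in KO from 0.306 and 0.266 to 2.39 and 1.9 CPM, so here both genes were higher.

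DAC was also compared with BMN on the same days, so that time in culture was matched. Over the mean of the 3 days in WT, 38 antisense genes were higher and 69 lower with DAC (58.2%, where 42.7% of all genes passed, 23.3% higher and 19.4% lower), and in KO 65 were higher and 40 lower (57.1%, where 51.5% passed, 28.5% higher and 23% lower). Of the 118 genes at the rule in untreated libraries, 11 were higher and 55 lower in WT, and 27 and 31 in KO. The other 66 had 27 and 14 in WT and 38 and 9 in KO. Of 553 other antisense genes tested, below the CPM rule, 96 were higher and 44 lower in WT, and 136 and 22 in KO. The pair ratio differed in 89 pairs in WT (36 higher and 53 lower, where 32% of all pairs passed, 14.9% higher and 17% lower) and in 91 in KO (51 higher and 40 lower, where 32.1% passed, 19.3% higher and 12.8% lower). PROSER2-AS1 differed by a log2 of 8.45 in WT and 7.44 in KO, and AFAP1-AS1 by 7.30 and 6.37.

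**Figure D3:**
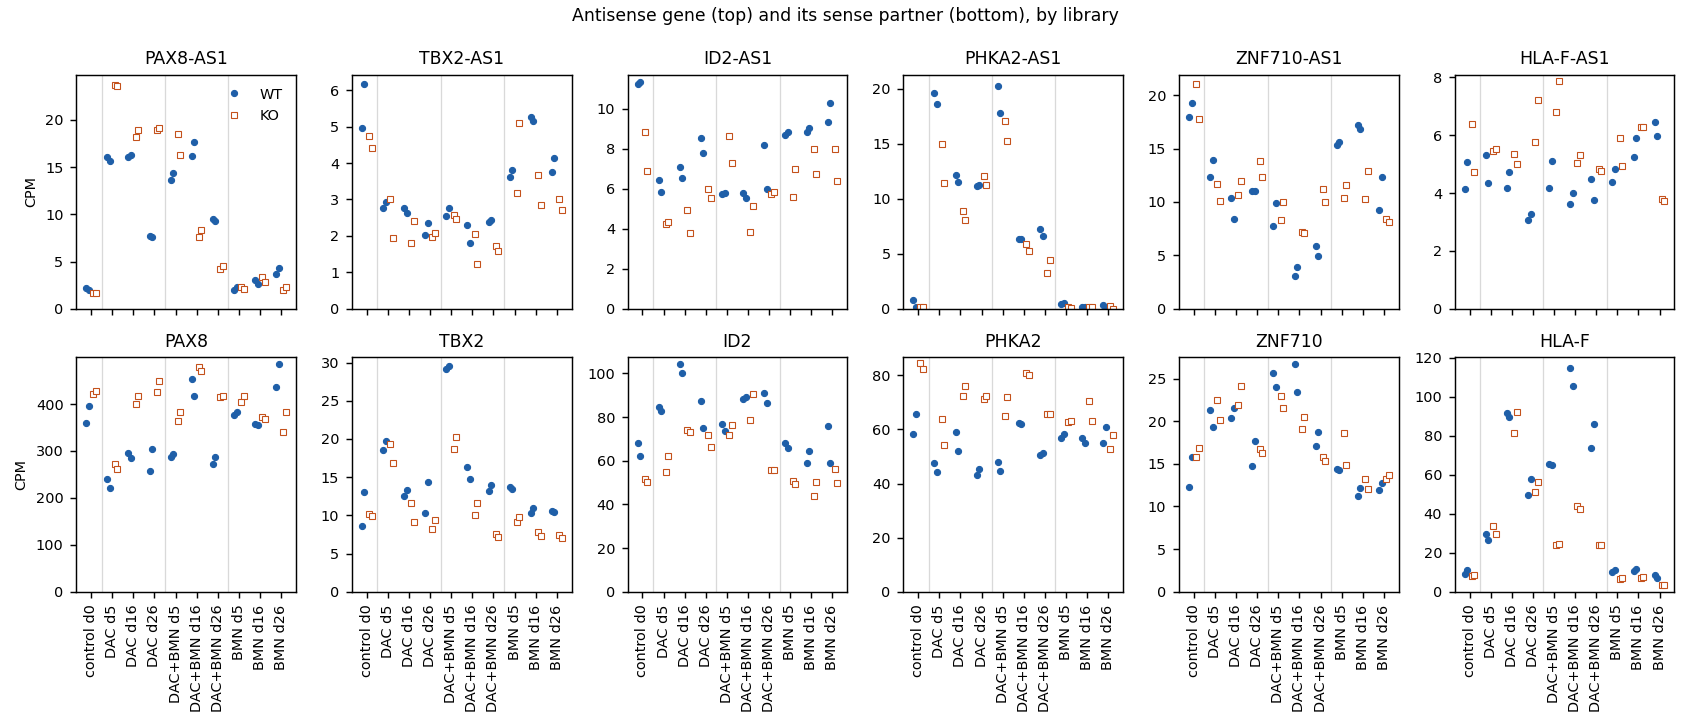
Levels in CPM of 6 antisense genes (top row) and their sense partners (bottom row) in each library, by treatment and day; filled circles are WT and open squares KO libraries, and each panel has its own axis from 0. PAX8-AS1 is at 15.6 to 23.7 CPM with DAC at day 5, where PAX8 is at 221 to 272 CPM, and HLA-F-AS1 stays at 3.07 to 7.86 CPM.

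The later days of DAC were compared with the same untreated libraries. At day 16, 41 antisense genes were higher and 27 lower than control in WT (37%, where 33.5% of all genes passed, 18.6% higher and 14.9% lower), and 37 and 42 in KO (42.9%, where 37.7% passed, 19.9% higher and 17.8% lower). At day 26 WT had 26 higher and 49 lower (40.8%, where 31.9% passed, 18.7% higher and 13.2% lower). KO had 65 higher and 33 lower (53.3%, where 47.2% passed, 26.3% higher and 20.9% lower). With only the WT groups compared the WT split at day 26 was 16 higher and 10 lower, and without the filter on low counts the KO split was 46 higher and 36 lower. The median log2 change from control at day 26 was -0.21 in WT and 0.19 in KO, against 0.02 and -0.03 for the partners. For all genes it was 0.03 in WT and 0.11 in KO. Here too the split differed between the kinds of member: the 118 genes at the rule in untreated libraries had 7 higher and 40 lower in WT and 32 and 29 in KO, and the other 66 had 19 and 9 in WT and 33 and 4 in KO.

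Day 26 was then compared with day 5 of DAC, which uses no untreated library. In WT 13 antisense genes were higher and 36 lower at day 26 (26.6%, where 21.7% of all genes passed, 12.6% higher and 9.14% lower). In KO 66 were higher and 18 lower (45.7%, where 35.9% passed, 18.1% higher and 17.8% lower). With only the groups compared in the fit the WT count was 12. Without replicate 1 of WT at day 5 it was 22, and without replicate 1 of WT at day 26 it was 26. The KO count was 54 without replicate 2 of KO at day 26. Over the 184 genes the median change was -0.12 in WT and 0.28 in KO, over their partners 0.07 and 0.01, over 553 other antisense genes tested -0.09 and 0.17, and over all genes 0.00 and 0.05. Summed over the 184 genes, the CPM in WT were 2073 and 2028 on day 5, 2180 and 2197 on day 16, and 1818 and 1872 on day 26. In KO the sum was 1921 and 1896, then 1960 and 1983, then 2290 and 2264 CPM. WT was thus highest at day 16 and lowest at day 26, and KO highest at day 26. With BMN the sum was 1852 and 1838, 2005 and 1982, and 2121 and 2154 CPM on these days in WT, and 1885 and 1871, 1968 and 2000, and 1753 and 1727 CPM in KO.

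The difference between the lines was tested itself. The change from day 5 to day 26 was higher in KO for 39 antisense genes and lower for 4 (23.4%, where 13.3% of all genes passed, 5.48% higher and 7.79% lower), and with only these 4 groups in the fit 18 passed. The median difference was 0.35 over the 184 genes, -0.05 over partners, 0.25 over other antisense genes and -0.00 over all genes, and 138 of the 184 point estimates (75%) were above 0, against 61.5% over other antisense genes and 49.9% over all genes. Of the 118 genes at the rule in untreated libraries 33 were higher and 2 lower, and of the other 66, 6 and 2. FLG-AS1, antisense to the gene of filaggrin, was at 6.33 and 6.64 CPM at day 5 and at 5.34 and 4.42 CPM at day 26 in WT (log2 -0.36, SE 0.16, adjusted p = 0.11). In KO FLG-AS1 rose from 5.05 and 6.49 to 11.6 and 10.9 CPM, and the difference between lines was 1.26 (SE 0.22, adjusted p = 0.00014). FLG differed in the same direction, by 0.92 (SE 0.19), and FLG-AS1, at 0.022 of its level per kb, lies within the range of the strand check. GNAS-AS1, an imprinted transcript of the locus of the stimulatory G protein, went from 6.71 and 7.47 to 4.02 and 4.51 CPM in WT and from 9.78 and 9.07 to 11.7 and 16.3 CPM in KO (difference 1.18, SE 0.22, adjusted p = 0.00042), and GNAS differed by -0.01. GNAS-AS1, at 0.0455 of the level per kb of GNAS, is also within the range of the strand check. FBXL19-AS1, GNAS-AS1, THUMPD3-AS1, TTC28-AS1 and ZNF529-AS1 were among the genes that fell in WT and rose in KO. ROR1-AS1 went the other way, from 2.81 and 3.58 to 0.793 and 1.17 CPM in KO and from 2.29 and 3.42 to 3.35 and 2.87 CPM in WT (difference -1.94, SE 0.44, adjusted p = 0.0027).

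CCDC144NL-AS1 and IGFL2-AS1 rose in both lines. CCDC144NL-AS1 went from 1.28 and 0.83 to 5.86 and 7.33 CPM in WT (log2 2.71) and from 1.25 and 0.422 to 5.24 and 4.62 CPM in KO (log2 2.48). IGFL2-AS1 went from 2.93 and 2.29 to 6.28 and 6.28 CPM in WT (log2 1.33) and from 1.15 and 0.685 to 3.33 and 3.45 CPM in KO (log2 1.81). SLC9A3-AS1, inside the gene of an apical sodium-proton exchanger, fell from 54.2 and 54.1 to 20.7 and 27.4 CPM in WT after 79 and 82 CPM at day 16. In KO, SLC9A3-AS1 was at 32.3 and 30.4 CPM at day 5 and at 27.1 and 30.7 CPM at day 26, and the difference between lines was 0.93 (SE 0.21, edgeR adjusted p = 0.0022).

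**Figure D4:**
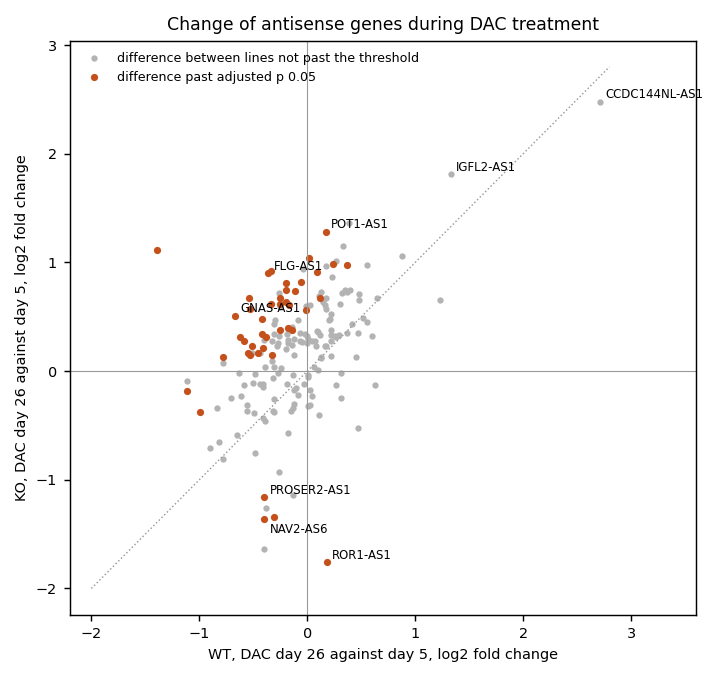
Log2 change from day 5 to day 26 of DAC for each of the 184 antisense genes, in WT (horizontal) and KO (vertical); coloured points passed the test of the difference between lines, and the dotted line marks equal change. Most points lie above the line of equal change (138 of 184), with GNAS-AS1 at -0.67 in WT and 0.51 in KO.

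Many antisense transcripts are degraded in the nucleus by the RNA exosome and its adaptors, so 27 genes of that machinery were read beside these changes. From day 5 to day 26 in KO, 5 of the 27 were higher (EXOSC9, RBM26, RBM7 and ZFC3H1 among them) and 4 lower (EXOSC2, EXOSC4, EXOSC5 and SRRT), where 18.1% of all genes were higher and 17.8% lower. In WT 3 were higher (EXOSC10, EXOSC9 and XRN2), where 12.6% of all genes were. Against control at day 26 in KO, 11 were higher and 4 lower, where 26.3% and 20.9% of all genes were, and with DAC against BMN in KO, 4 were higher and 14 lower, where 28.5% and 23% were. With BMN against control in KO, over the mean of the 3 days, 16 were higher and 2 lower, where 13.2% and 17.3% of all genes were. The antisense genes there summed to 1885 and 1871 CPM at day 5 and to 1968 and 2000 CPM at day 16. At day 26 they summed to 1753 and 1727 CPM, against 1901 and 1884 CPM in untreated KO cells. The part of this machinery in the changes was not tested.

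With BMN alone in WT, the share of antisense genes that passed was close to that of all genes. Over the mean of the 3 days, 7 were higher and 5 lower than control (6.52%, where 6.13% of all genes passed, 2.64% higher and 3.49% lower), among them KDM4A-AS1 (log2 -0.42, SE 0.12) and ENTPD1-AS1 (log2 0.31, SE 0.08). This count was 23 without WT control replicate 1 and 1 without WT control replicate 2, where neither gene passed (KDM4A-AS1 adjusted p = 0.43, ENTPD1-AS1 0.27). It was 7 without BMN day 5 replicate 1 or day 16 replicate 1, and 4 without BMN day 16 replicate 2 or day 26 replicate 1. In KO 12 were higher and 41 lower (28.8%, where 30.4% of all genes passed, 13.2% higher and 17.3% lower). That count was 32 without KO control replicate 1 and 24 without KO control replicate 2. BCAN-AS2 went from 13.4 and 12.3 CPM to between 3.24 and 7.9 CPM in the 6 BMN libraries of KO (log2 -1.14, SE 0.16, adjusted p = 4.2e-06). SLC9A3-AS1 went from 19.9 and 19.4 CPM to between 7.31 and 14.1 CPM (log2 -1.01, SE 0.13, adjusted p = 7.9e-07).

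The combination was compared with DAC on the same days. Over the mean of the 3 days, 33 antisense genes were higher and 19 lower in WT (28.3%, where 23.1% of all genes passed, 10.2% higher and 12.8% lower), and 20 higher and 28 lower in KO (26.1%, where 22.8% passed, 10.9% higher and 11.8% lower). STEAP1B-AS1 was higher with the combination in both lines. In WT, STEAP1B-AS1 was at 4.15 and 4.69 CPM with DAC and at 18.8 and 17.7 CPM with the combination at day 5, and at 8.61 and 9.68 and then 21.1 and 21.9 CPM at day 16. In KO it was at 14.6 and 17.7 CPM and at 32.8 and 31.9 CPM at day 5. Averaged over days the log2 difference was 1.46 in WT (SE 0.08, adjusted p = 3.8e-16) and 0.69 in KO (SE 0.07, adjusted p = 1.9e-09).

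At day 26 the lines differed. In WT 20 antisense genes were higher and 17 lower with the combination than with DAC (20.1%, where 12.2% of all genes passed, 5.07% higher and 7.12% lower), and 6 passed with only these groups in the fit. The WT count was 16 or 23 without combination replicate 1 or 2, and 22 or 24 without DAC replicate 1 or 2. In KO 8 were higher and 51 lower (32.1%, where 23.9% passed, 12.6% higher and 11.3% lower), and 39 passed without combination replicate 2. The test of the difference gave 10 genes higher and 49 lower in KO (32.1%, where 21.1% passed, 11.6% higher and 9.51% lower). Of the 118 genes at the rule in untreated libraries 7 were higher and 21 lower, and of the other 66, 3 and 28. The median was -0.32 over the 184 genes, 0.02 over partners, -0.34 over other antisense genes and -0.01 over all genes. This comparison shares the day-26 DAC libraries with the change from day 5, so the comparisons are not independent.

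The genes that DAC had raised most were among those lower with the combination in KO. The 4 named here met the CPM rule only with treated libraries, so their values are given without p-values. AFAP1-AS1 was at 34 and 32.6 CPM with DAC and at 8.99 and 9.48 CPM with the combination in KO, and at 59.3 and 61.6 CPM and 56.7 and 53.8 CPM in WT. Its log2 change was -1.74 in KO (SE 0.09) and -0.16 in WT (SE 0.08, not past the threshold), and the difference between lines was -1.58 (SE 0.12). PAX8-AS1 was at 18.9 and 19.2 CPM with DAC and at 4.22 and 4.53 CPM with the combination in KO, and at 7.7 and 7.6 CPM and 9.54 and 9.24 CPM in WT. Its change was -2.02 in KO (SE 0.12), that of PAX8 was 0.03, and the difference between lines for PAX8-AS1 was -2.28 (SE 0.17). PROSER2-AS1 was at 27.8 and 26.8 CPM with DAC and at 7.14 and 9.1 CPM with the combination in KO (log2 -1.65, SE 0.15). In WT PROSER2-AS1 was at 36.2 and 44 CPM and at 29.2 and 33.9 CPM (log2 -0.38, SE 0.13, not past the threshold). KAZN-AS1 was at 5.02 and 5.25 CPM and at 0.695 and 0.53 CPM in KO (log2 -2.95, SE 0.33), and at 11.3 and 11 CPM and 6.57 and 6.67 CPM in WT. In each of these 4 genes the combination libraries of KO lay below its DAC libraries.

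The response to DAC over the 3 days was also tested between the lines. It differed for 10 antisense genes that rose more or fell less in KO and for 10 the other way (10.9%, where 8.82% of all genes passed, 3.66% higher and 5.17% lower). The count was 10 without WT control replicate 1 and 13 without KO control replicate 2. NECTIN3-AS1 (chr3:110888384-111071553, minus strand), which starts beside the gene of the adhesion protein NECTIN3, had the largest difference. In WT NECTIN3-AS1 went from 0.932 and 0.817 CPM to 3.03 and 2.64 CPM at day 5, and in KO from 1.02 and 1.44 to 31.5 and 32.5 CPM. Its response was 2.66 higher in KO on the log2 scale (SE 0.44), and that of NECTIN3 was 0.28 higher. NECTIN3-AS1 met the CPM rule only with treated libraries, so its difference is given without a p-value. STEAP1B-AS1 differed by -2.49 (SE 0.23, adjusted p = 1.1e-09): the KO line began at 12.1 and 10.2 CPM and was at 14.6 and 17.7 CPM at day 5, while WT began at 0.88 and 0.562 CPM and was at 4.15 and 4.69 CPM. GAS6-AS1 differed by -1.62 (SE 0.18, adjusted p = 4e-08) in the same way, at 12.2 and 12.8 and then 25.2 and 22.5 CPM in KO and at 3.11 and 3.37 and then 23.8 and 22.9 CPM in WT.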

How the data were processed

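Total RNA of 786-0 cells was sequenced in 40 libraries, 20 groups of 2. The authors deposited 1 table of raw read counts per gene for 60664 Ensembl 104 genes on GRCh38, made with featureCounts 1.5.0-p1 as strand-specific fragment counts of primary alignments with a mapping quality of at least 20, duplicates ignored, per the file headers. Their alignment folder names STAR, and the submitters' processing notes name FastQC, Trimmomatic and Partek. Reads of near-identical copies can be lost at that mapping quality, ignoring duplicates can compress high levels, and low levels are bounded by a floor of 3 counts, 0.1326 to 0.1682 CPM.

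CPM is the count divided by the library's total count, times 1000000. Counts were tested with edgeR 4.0.16 (R 4.3.3) by the quasi-likelihood test after TMM scaling and filterByExpr (minimum count 10 per gene, minimum total 15), which kept 22527 genes. All 40 libraries and 20 group means entered 1 fit, with 20 residual degrees of freedom, since 2 libraries a group estimate the spread poorly. P-values were adjusted by Benjamini-Hochberg over all genes in each of 20 comparisons, and an adjusted p below 0.05 passed. Standard errors are the absolute log2 fold change over the square root of F. The ratio of an antisense gene to its partner was tested with limma 3.58.1 on voom log2 values over 663 pairs. On simulated data for WT with DAC at day 5, the edgeR test over 22527 genes recovered 52.2% of 1.5-fold, 74.6% of 2-fold and 98.5% of 4-fold changes, and the pair test over 663 pairs recovered 5%, 55% and 95%. The simulation gave every gene the same dispersion (0.005152) and changed only genes with at least 10 expected counts in untreated WT. Recovery in genes that vary more or lie lower was not measured.

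Members and lists were chosen with earlier results of these data known. The 3 comparisons of the combination with DAC at day 26 and the difference between lines in the change from day 5 to day 26 were added after the data were seen. Named genes were up to 6 rises and 6 falls by size in each comparison, among those past the threshold whose libraries did not overlap, the leading pairs, opposite pairs at day 5 and the 10 highest genes. Others, such as HLA-F-AS1 against control, were named after their values were seen. P-values are given for a gene only where it met the CPM rule in libraries outside the comparison. Those libraries can hold the same drug on other days or in the other line, so this does not remove the choice. For that reason none is given for the rises of PROSER2-AS1, AFAP1-AS1, PHKA2-AS1 and PAX8-AS1 with DAC at day 5. Nor is one given for AFAP1-AS1, PAX8-AS1, PROSER2-AS1 and KAZN-AS1 with the combination at day 26, or for the DAC response of NECTIN3-AS1 between lines. Alternatives were DESeq2 size factors in edgeR, DESeq2 1.42.0, no low-count filter, only the groups compared, a replicate block, other weights and filters for pairs, and leaving out each replicate. Values of some genes are not reported here. Promoter sequences are RefSeq's on GRCh38.p14.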

Additional observations from a re-analysis of the deposited data

Results flagged for a closer look

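The responses of WT and KO differed, by a test of the difference itself with edgeR, in the following antisense genes, each given as the log2 change in KO minus that in WT. For the response to DAC over the 3 days, it was higher in KO for NECTIN3-AS1 (2.66), USP2-AS1 (1.18), RAB33B-AS1 (1.12), POT1-AS1 (1.01) and PAX8-AS1 (0.99). NECTIN3-AS1 and PAX8-AS1 met the CPM rule only with treated libraries, so their values are a description. It was lower in KO for STEAP1B-AS1 (-2.49), GAS6-AS1 (-1.62), BCAN-AS2 (-1.23), MAP3K4-AS1 (-0.93), SLC30A4-AS1 (-0.90) and NUP153-AS1 (-0.83). With only the groups compared, adjusted p was 0.063 for USP2-AS1, 0.058 for POT1-AS1, 0.072 for MAP3K4-AS1 and 0.096 for SLC30A4-AS1. Without WT control replicate 1, adjusted p rose to 0.062 for USP2-AS1, 0.054 for RAB33B-AS1, 0.09 for POT1-AS1, 0.051 for PAX8-AS1, 0.13 for MAP3K4-AS1, 0.076 for SLC30A4-AS1 and 0.11 for NUP153-AS1. Without KO control replicate 1 it was 0.062 for POT1-AS1, 0.064 for MAP3K4-AS1 and 0.16 for SLC30A4-AS1, and without KO control replicate 2 it was 0.22 for USP2-AS1 and 0.13 for MAP3K4-AS1. SLC30A4-AS1 was at 0.1 without WT control replicate 2, and MAP3K4-AS1 at 0.059 to 0.067 without each of 4 DAC libraries.

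For the change from day 5 to day 26 of DAC, it was higher in KO for FLG-AS1 (1.26), FAM13A-AS1 (1.26), ZNF529-AS1 (1.21), GNAS-AS1 (1.18) and POT1-AS1 (1.11), and lower for ROR1-AS1 (-1.94), BCAN-AS2 (-1.03), NAV2-AS6 (-0.96) and PROSER2-AS1 (-0.75). FAM13A-AS1 met the CPM rule only through the libraries compared, and PROSER2-AS1 only with treated libraries, so their values are a description. With only the groups compared, adjusted p was 0.086 for POT1-AS1, 0.07 for BCAN-AS2 and 0.1 for NAV2-AS6. Without single libraries the adjusted p rose to at most 0.1 for POT1-AS1 (KO day 5 replicate 1, WT day 5 replicate 2), to at most 0.1 for NAV2-AS6 (KO day 26 replicate 1, WT day 5 replicate 2), to 0.054 for PROSER2-AS1 without KO day 5 replicate 1 and to 0.059 without WT day 26 replicate 2. BCAN-AS2 went to 0.11 to 0.25 without either KO day 26 library or replicate 2 of KO day 5, WT day 5 or WT day 26.

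For the combination against DAC at day 26, it was higher in KO for BCAN-AS2 (2.14), ELF3-AS1 (1.42), ZFHX4-AS1 (1.42), CCNT2-AS1 (1.03), RBMS3-AS3 (0.97) and NAV2-AS6 (0.92). It was lower in KO for CCDC144NL-AS1 (-2.44), PAX8-AS1 (-2.28), KAZN-AS1 (-2.17), FER1L6-AS2 (-1.89) and AFAP1-AS1 (-1.58). PAX8-AS1, KAZN-AS1, FER1L6-AS2 and AFAP1-AS1 met the CPM rule only with treated libraries, so their values are a description. GDNF-AS1 (-3.06) had 4 counts in the WT DAC libraries together, a mean of 0.0899 CPM and below the floor, so its fitted difference does not give the size, and its adjusted p was 0.051 with only the groups compared. In that fit it was 0.052 for CCNT2-AS1 and 0.084 for NAV2-AS6. Adjusted p was 0.056 for ELF3-AS1 without WT combination replicate 2, 0.075 for CCNT2-AS1 without WT DAC replicate 1, 0.053 for RBMS3-AS3 without KO DAC replicate 1, at most 0.11 for NAV2-AS6 without KO DAC replicate 1, WT DAC replicate 1 or WT combination replicate 2, and at most 0.13 for ZFHX4-AS1 without replicate 1 of any of the 4 groups or WT combination replicate 2. CCDC144NL-AS1 was at 5.86 and 7.33 CPM with DAC and at 10.5 and 11.2 CPM with the combination in WT, and at 5.24 and 4.62 CPM and 1.16 and 1.54 CPM in KO.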

How the results depend on the processing

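Of 291 alternative counts of antisense genes or pairs, 262 stayed within 1.5 times the value reported and 29 did not. Of 2423 alternative values of named genes, 2273 stayed on their side of the threshold with their direction, 150 no longer passed (112 of them without 1 replicate and 30 with only the groups compared) and 0 reversed. With only the groups compared, 40 genes passed for KO against WT, 32, 39 and 26 for WT with DAC at days 5, 16 and 26, 12 for WT from day 5 to 26, 11 for the DAC response between lines, 18 for the change from day 5 to 26 between lines and 6 for the WT combination at day 26. For WT with BMN that fit gave 0 (35 at an unadjusted p below 0.05), where edgeR on all libraries gave 12 (47 unadjusted) and DESeq2 15 (43 unadjusted). These fits hold fewer samples.

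Leaving out 1 replicate, with the dispersions of the full fit and the lone library assumed to vary like the other groups, gave 50 to 59 genes for KO against WT, 41 to 49, 47 to 62 and 53 to 74 for WT with DAC at days 5, 16 and 26, and 52 to 62, 62 to 68 and 71 to 87 for KO. It gave 1 to 23 for WT with BMN, 24 to 53 for KO with BMN, 94 to 104 and 99 to 104 for DAC against BMN in WT and KO, 40 to 53 and 38 to 46 for the combination, and 22 to 43 and 54 to 65 for day 26 against day 5. Between lines it gave 10 to 23 for the DAC response, 31 to 41 for the late change and 46 to 56 for the combination at day 26, which gave 16 to 24 in WT and 39 to 50 in KO. Pairs numbered 20 to 34 for KO against WT, 38 to 47 and 37 to 46 with DAC at day 5 in WT and KO, and 81 to 93 and 82 to 89 against BMN.

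Replicate numbers did not pair the libraries: over 190 pairs of groups the correlation of same-numbered deviations ran from -0.174 to 0.237. A replicate block gave 66 genes for KO against WT, 52 for WT and 73 for KO with DAC at day 5, 11 for WT with BMN and 42 for the late change between lines, with 37, 53 and 54 pairs for the first 3, and moved no count by over 1.5 times. With 2 libraries a group, small changes in genes near the floor were not detectable at this depth.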
